A study of Mus musculus with 6 samples.

Results

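The HOX genes are homeobox genes that sit in the 4 clusters HOXA, HOXB, HOXC and HOXD and encode transcription factors that mark position along the body axis. Members were taken by name, as every gene label that reads Hoxa, Hoxb, Hoxc or Hoxd followed by a number, with labels that list several genes split at the commas. This found 39 genes of the 13 paralog groups among 23406 named rows. They stand on 30 rows, of which 29 rows with 37 genes are described. Of these, 23 rows hold a single HOX gene and 6 rows hold 14 HOX genes that the deposited files do not separate. The value of such a shared row belongs to its genes together. Of the 29 rows, 21 rows with 28 genes reached 1 FPKM in at least 2 of the 6 libraries and were tested.

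The RNA came from mouse embryonic fibroblasts (MEFs) on day 7 of reprogramming with OSKM, the factors Oct4, Sox2, Klf4 and Myc that turn fibroblasts into induced pluripotent stem cells. All 4 groups share the cell type, OSKM and the day, and differ in the alleles of Adar, which encodes the RNA-editing enzyme ADAR1, and in treatment. WT is Adar1 Fl/Fl with vehicle (n = 2) and KO is Adar1 Fl/Fl with 4-hydroxytamoxifen, 4OHT (n = 2). HET is Adar1 Fl/E861A with vehicle (n = 1) and MUT is Adar1 Fl/E861A with 4OHT (n = 1). Fl marks a floxed allele, which Cre recombinase can remove, and 4OHT is the usual switch for an inducible Cre. E861A is an amino acid change known to abolish editing. The labels name neither the Cre driver nor the deleted exons, and whether the replicates are independent cultures is not stated. The p-values therefore cover the spread among the libraries at hand, which may be technical.

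As background, the genes of a HOX cluster lie in the order of the body regions they serve, with groups 1 to 3 at the 3′ end used in the head and neck (anterior), groups 4 to 8 in the trunk (central), and groups 9 to 13 at the 5′ end in the lower trunk, limbs and tail (posterior). Fibroblasts keep a HOX pattern of the place they were taken from, and in limb cells the posterior genes of HOXA and HOXD are the most prominent. Trithorax proteins keep HOX genes on, Polycomb proteins keep them off, and PBX and MEIS proteins bind DNA together with HOX proteins. On mouse build GRCm38 (GENCODE release M 21), the HOXA genes described span chr6:52169062-52260880, those of HOXB chr11:96194316-96368256, HOXC chr15:102921103-103036852 and HOXD chr2:74668310-74765142.

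The 250 bases upstream of the start of 5 members are printed because their rows moved apart. Hoxb8 and the row that Hoxb4 shares with Hoxb3 rose in KO, and the posterior genes Hoxa13, Hoxd12 and Hoxd13 did not. The sequences are from RefSeq (GRCm38.p6), 5′ to 3′ on the strand of the gene, and no annotated exon overlaps them. Capitals mark the letters of a TATA box (TATAAA) or a CCAAT box (CCAAT) on either strand.
Hoxb4 promoter, chr11:96318017-96318266, plus strand: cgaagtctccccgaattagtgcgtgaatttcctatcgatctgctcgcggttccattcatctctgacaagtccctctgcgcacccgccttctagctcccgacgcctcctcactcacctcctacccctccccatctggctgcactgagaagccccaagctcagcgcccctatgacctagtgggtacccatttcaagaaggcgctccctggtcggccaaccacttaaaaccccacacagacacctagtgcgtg
Hoxb8 promoter, chr11:96281655-96281904, plus strand: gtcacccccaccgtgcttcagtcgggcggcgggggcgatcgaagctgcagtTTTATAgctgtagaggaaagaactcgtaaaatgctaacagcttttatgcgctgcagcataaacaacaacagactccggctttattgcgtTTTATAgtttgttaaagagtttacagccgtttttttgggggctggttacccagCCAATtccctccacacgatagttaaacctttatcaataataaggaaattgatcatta
Hoxa13 promoter, chr6:52260881-52261130, minus strand: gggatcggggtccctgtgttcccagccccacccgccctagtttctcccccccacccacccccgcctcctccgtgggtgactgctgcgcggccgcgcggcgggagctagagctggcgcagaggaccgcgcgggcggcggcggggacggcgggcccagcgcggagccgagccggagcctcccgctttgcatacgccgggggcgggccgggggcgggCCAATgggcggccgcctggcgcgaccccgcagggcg
Hoxd12 promoter, chr2:74674763-74675012, plus strand: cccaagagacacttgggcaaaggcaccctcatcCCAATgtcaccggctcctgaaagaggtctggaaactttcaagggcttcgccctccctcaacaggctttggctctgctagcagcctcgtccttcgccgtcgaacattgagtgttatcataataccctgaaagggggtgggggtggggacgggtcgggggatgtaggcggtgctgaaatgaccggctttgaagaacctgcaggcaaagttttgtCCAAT
Hoxd13 promoter, chr2:74667975-74668224, plus strand: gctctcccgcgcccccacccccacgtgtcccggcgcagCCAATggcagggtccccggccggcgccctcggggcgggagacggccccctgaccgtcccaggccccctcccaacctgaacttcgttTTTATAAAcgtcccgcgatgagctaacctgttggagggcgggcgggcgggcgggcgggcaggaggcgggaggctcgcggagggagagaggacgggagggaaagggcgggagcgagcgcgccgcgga
The RefSeq table held 23 promoters of 21 of these HOX genes. The TATAAA letters stood in 4 of the 23 and in 12.4% of all 32851 promoters of the same length, and the CCAAT letters in 13 of 23 and in 33.8% of all. The letters TGATTNAT of a joint PBX and HOX site stood in 1 of 23 and in 2.82% of all, and the retinoic acid response element (AGGTCA, any 5 bases, then AGGTCA) in 0 of 23 and in 0.00913% of all. CG dinucleotides numbered 14 in the Hoxb4 window, 12 in that of Hoxb8, 10 in that of Hoxd12, 31 in that of Hoxd13 and 35 in that of Hoxa13, against a median of 13 over HOX promoters and 6 over all promoters. These counts describe the letters of the windows and no binding was measured.

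The values are FPKM, fragments scaled to transcript length and library total, so levels of different genes can be set side by side. No read totals come with them, and the depth is unknown. Across 12266 tested rows the Pearson r of log2(FPKM + 1) was 0.995 within WT and 0.995 within KO, and 0 HOX rows differed 2-fold or more between replicates. Adar, the targeted gene, stood at 19.6 and 19.5 FPKM in WT, 34.2 and 31.3 in KO, 17 in HET and 33.0 in MUT, and rose in KO (log2 difference 0.72, SE 0.10, limma adjusted p = 0.000125). A value for the whole gene does not show the loss of single exons, so it does not check the labels of the libraries labelled KO and MUT.

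In the WT libraries the HOX RNA was mostly that of posterior HOXA and HOXD genes. These 6 rows summed to 131 FPKM in WT 1 and 144 in WT 2, out of 166.5 and 180 FPKM over the 29 HOX rows. Hoxd13, which patterns the digits, was the highest row at 58.4 and 70.3 FPKM, followed by the shared row of Hoxa9 and Hoxa10 at 39.8 and 42.3 FPKM, and these do not overlap. Hoxa11, a gene of the forearm and lower leg, came next at 12.1 and 12 FPKM. The shared row of Hoxd9, Hoxd10 and Hoxd11 (8.80 and 9.67 FPKM) lay above Hoxa13 (8.68 and 6.99 FPKM), a gene of hands and feet, by a small margin in WT 1.

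**Figure D1:**
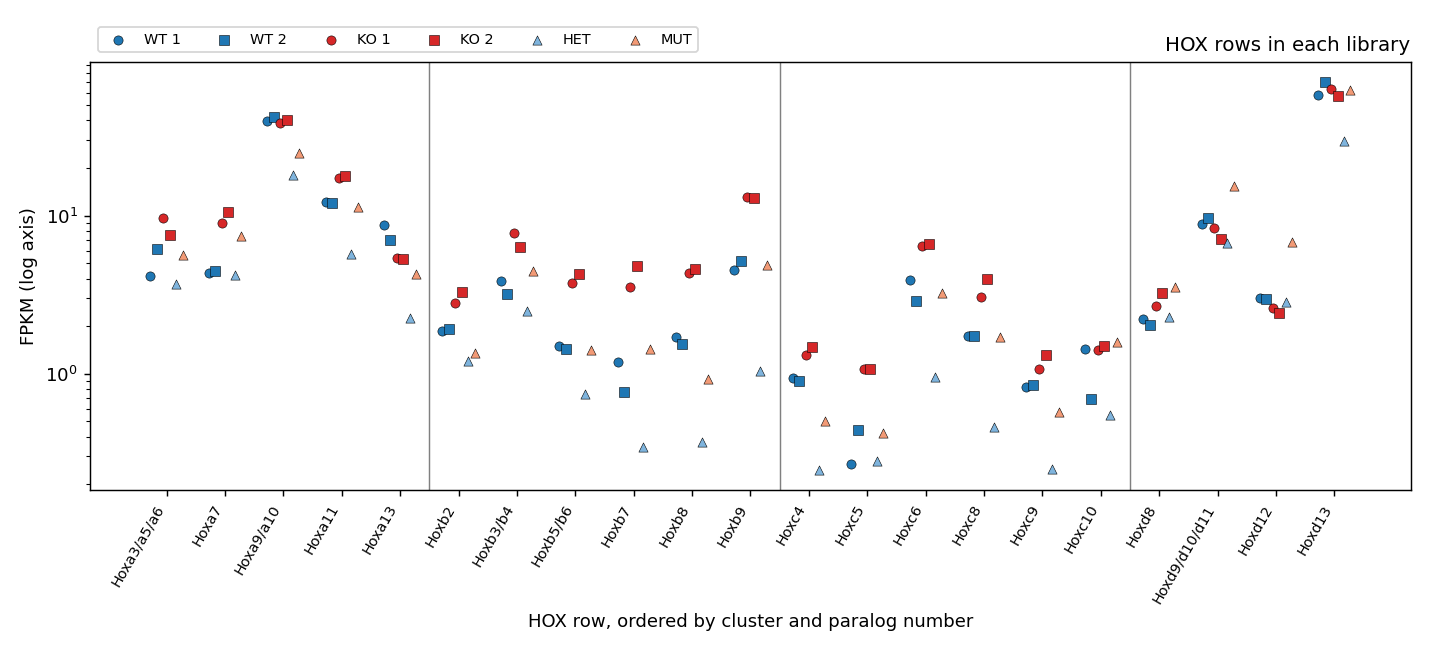
FPKM of the 21 tested HOX rows in each of the 6 libraries, on a log axis, ordered by cluster (grey lines separate A, B, C and D) and by paralog number; circles and squares are replicates 1 and 2, triangles are the single HET and MUT libraries. Hoxd13 and the row of Hoxa9 and Hoxa10 are the highest in every library, and the KO points of HOXB lie above the WT points.

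At the other end, 8 rows with 9 genes did not pass the filter and were not tested: Hoxa4, Hoxb1, Hoxb13, Hoxc11, Hoxc12, Hoxc13, Hoxd1 and the shared row of Hoxd3 and Hoxd4. Their values ran from 0 to 1.72 FPKM, and Hoxb1, a gene of the hindbrain, was listed at 0 in all 6 libraries. The shared row of Hoxd3 and Hoxd4 was the highest of them, at 0.645 and 0.728 FPKM in WT and 0.970 and 1.72 in KO. Hoxa4 stood at 0.390 and 0.398 FPKM in WT, 0.863 and 0.743 in KO, 0.127 in HET and 0.636 in MUT.

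KO against WT sets 4OHT against vehicle in Fl/Fl cells, where the label KO stands for loss of ADAR1, which the Adar values do not check. Of the 21 tested rows, 13 rose in KO, 1 fell and 7 were not called (limma on log2(FPKM + 1), adjusted p under 0.05 over all rows tested). Over all 12266 tested rows 29.5% rose and 28.2% fell. The median difference was 0.51 on the log2 scale over the HOX rows and 0.02 over all rows. In 15 rows both KO libraries lay above both WT libraries, which 40.9% of all rows did, and in 3 rows both lay below, which 38.0% did. By cluster, 3 of 5 tested rows of HOXA rose and 1 fell, 6 of 6 of HOXB rose, 3 of 6 of HOXC rose and 1 of 4 of HOXD rose. By position, 11 of the 12 rows that hold groups 1 to 8 rose, and of the 9 posterior rows 2 rose, 1 fell and 6 were not called. Hoxc4, Hoxc5 and Hoxc9 reached the filter only through the KO libraries, and the counts by cluster and by position include them. Of these, Hoxc5 is among the rows counted as rising. Without those 3 rows the count was 12 higher and 1 lower of 18.

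HOXB rose throughout the rows that could be tested. Hoxb9, a gene of the thorax and ribs at the 5′ side of the cluster, stood at 4.56 and 5.16 FPKM in WT, 13.1 and 12.9 in KO, 1.03 in HET and 4.89 in MUT (replicate 1 first, here and below). Both KO libraries were the highest and the HET library the lowest, and the MUT library lay between the WT libraries. The log2 difference was 1.26 (SE 0.11, limma adjusted p = 3.83e-06), or 2.68-fold in mean FPKM. Hoxb8, known for holding blood progenitors in an immature state, stood at 1.71 and 1.55 FPKM in WT, 4.35 and 4.60 in KO, 0.368 in HET and 0.925 in MUT, a log2 rise of 1.06 (SE 0.12, limma adjusted p = 2.67e-05). Hoxb7 rose from 1.18 and 0.761 FPKM in WT to 3.53 and 4.82 in KO (log2 difference 1.39, SE 0.16), beside 0.345 in HET and 1.43 in MUT.

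The 3′ side of HOXB moved the same way. The shared row of Hoxb5 and Hoxb6 stood at 1.5 and 1.44 FPKM in WT, 3.75 and 4.29 in KO, 0.739 in HET and 1.41 in MUT (log2 difference 1.02 for KO against WT, SE 0.12). The shared row of Hoxb3 and Hoxb4, the latter known to expand blood stem cells, stood at 3.88 and 3.21 FPKM in WT, 7.78 and 6.36 in KO, 2.5 in HET and 4.46 in MUT (log2 difference 0.83, SE 0.13). In each of these rows both KO libraries lay above the other 4 libraries. Hoxb2, a gene of the hindbrain, rose from 1.87 and 1.91 FPKM to 2.82 and 3.28 (log2 difference 0.48, SE 0.12, limma adjusted p = 0.00619), beside 1.21 in HET and 1.36 in MUT. The Hoxb2 call was lost without KO 2 (adjusted p = 0.0517). Summed over the cluster, HOXB went from 14.7 and 14.1 FPKM in WT to 35.4 and 36.2 in KO, 2.49-fold, and stood at 6.28 in HET and 14.5 in MUT.

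In HOXC, 3 rows rose at low levels, among them Hoxc5, which reached the filter only through the KO libraries. Hoxc6, a gene of the upper thorax, stood at 3.93 and 2.88 FPKM in WT, 6.43 and 6.60 in KO, 0.959 in HET and 3.22 in MUT (log2 difference 0.78, SE 0.13, limma adjusted p = 0.000521). Hoxc8, which specifies motor neurons of the brachial spinal cord, stood at 1.73 in both WT libraries, 3.05 and 3.97 in KO, 0.459 in HET and 1.71 in MUT (log2 difference 0.72, SE 0.13). For both genes the KO libraries were the highest and HET the lowest. Hoxc5 went from 0.270 and 0.442 FPKM to 1.07 and 1.08 (log2 difference 0.61, SE 0.14). Hoxc4, Hoxc9 and Hoxc10 were not called, with log2 differences of 0.32, 0.25 and 0.27. The level of Hoxc10 in WT 2 was 0.693 FPKM against 1.43 in WT 1, so that WT and KO overlapped, and without WT 1 its difference was called (0.53, limma adjusted p = 0.011). Hoxc4 was also called with eBayes without trend (adjusted p = 0.0243), and Hoxc4, Hoxc9 and Hoxc10 were called with quantile normalization. The HOXC sum was 9.34 and 7.70 FPKM in WT, 14.8 and 16.2 in KO, 2.82 in HET and 8.70 in MUT.

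Rows of HOXA moved both ways. Hoxa7, a gene of the thorax, stood at 4.33 and 4.49 FPKM in WT, 9.02 and 10.5 in KO, 4.22 in HET and 7.48 in MUT, a log2 rise of 0.99 in KO (SE 0.11, limma adjusted p = 3.39e-05). The shared row of Hoxa3, Hoxa5 and Hoxa6, which act in the neck, lung and upper trunk, stood at 4.16 and 6.18 FPKM in WT, 9.62 and 7.58 in KO, 3.72 in HET and 5.60 in MUT (log2 difference 0.65, SE 0.16, limma adjusted p = 0.00605). That call was lost without WT 1 (adjusted p = 0.0632).

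The 5′ end of HOXA did not move as a block. The row of Hoxa9 and Hoxa10, genes of the lower trunk, was not called and overlapped between groups, at 39.8 and 42.3 FPKM in WT, 38.3 and 40.2 in KO, 18.1 in HET and 24.8 in MUT (log2 difference -0.06, SE 0.10). Hoxa11 rose from 12.1 and 12 to 17.3 and 17.8 FPKM (log2 difference 0.51, SE 0.10, limma adjusted p = 0.00117), beside 5.72 in HET and 11.3 in MUT. Hoxa13, the last gene of the cluster, went the other way, from 8.68 and 6.99 FPKM in WT to 5.41 and 5.34 in KO, beside 2.24 in HET and 4.29 in MUT. It was the HOX row that fell in KO, with a log2 difference of -0.46 (SE 0.12, limma adjusted p = 0.00722), and the call was lost without WT 1 (adjusted p = 0.0787). Neighbouring rows of the same cluster thus lay on both sides of 0, and Hoxa11 and Hoxa13, which are separated by no other HOX gene, were called in opposite directions. The HOXA sum was 69.5 and 72.3 FPKM in WT, 80.6 and 82.2 in KO, 34.1 in HET and 54.1 in MUT.

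In HOXD only Hoxd8, the tested row nearest the 3′ end, was called. Its values were 2.21 and 2.03 FPKM in WT, 2.69 and 3.24 in KO, 2.27 in HET and 3.54 in MUT (log2 difference 0.34, SE 0.12, limma adjusted p = 0.0367). Its call did not hold when WT 1 (adjusted p = 0.0607), WT 2 (0.124) or KO 2 (0.257) was left out. Hoxd13 overlapped between the groups, at 58.4 and 70.3 FPKM in WT and 63.3 and 57.2 in KO (log2 difference -0.09, SE 0.11, limma adjusted p = 0.531, and 0.04 without WT 2). Hoxd12, at 3.02 and 2.96 against 2.61 and 2.41 FPKM, and the row of Hoxd9, Hoxd10 and Hoxd11, at 8.80 and 9.67 against 8.36 and 7.11 FPKM, were lower in both KO libraries but not called (log2 differences -0.19 and -0.23, limma adjusted p = 0.193 and 0.106). The row of Hoxd9, Hoxd10 and Hoxd11 was called lower without KO 1 (adjusted p = 0.0461), and the difference of Hoxd12 was 0.03 with quantile normalization. The HOXD sum was 73.0 and 85.7 FPKM in WT and 78.0 and 71.7 in KO.

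**Figure D2:**
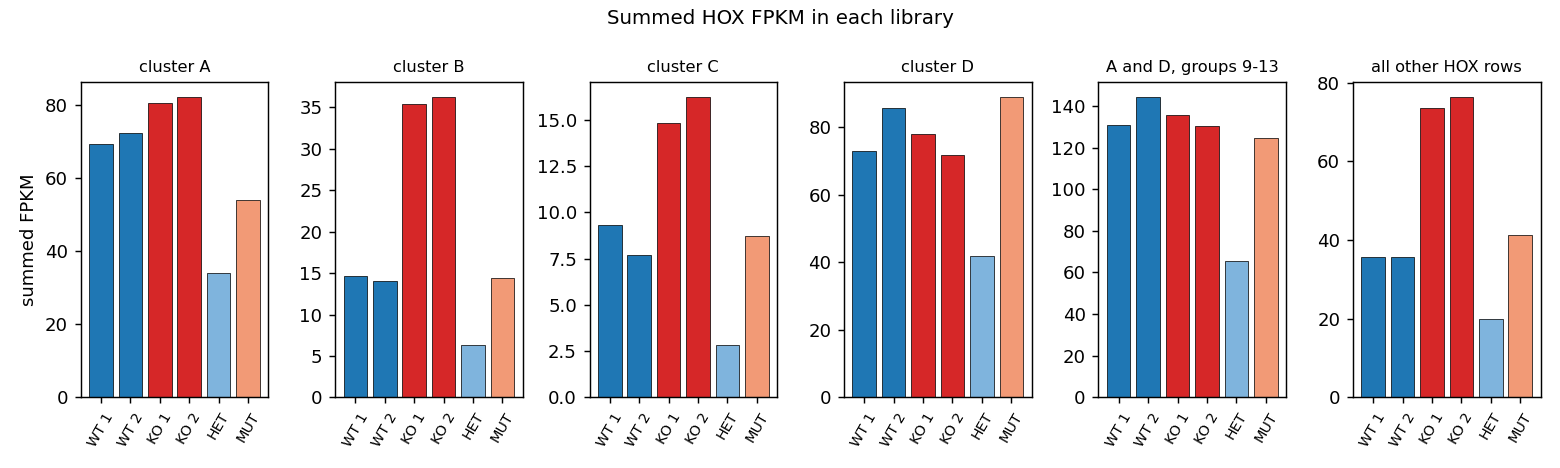
Summed FPKM of HOX rows in each library, by cluster and, in the last panels, for groups 9 to 13 of HOXA and HOXD against the other HOX rows; every axis starts at 0 and each bar is a single library. HOXA, HOXB and HOXC stand higher in both KO libraries than in both WT libraries, HOXD does not, and HET is the lowest library in every panel.

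The sums add up the same FPKM values as the rows above, so they are not separate support. The grouping that sets posterior HOXA and HOXD apart is neither a cluster nor a position. Its outcome follows from the rows placed in it. Without the posterior rows of HOXA and HOXD, the other 23 HOX rows went from 35.8 and 35.7 FPKM in WT to 73.4 and 76.2 in KO, 2.1-fold, and stood at 19.8 in HET and 41.2 in MUT. The posterior HOXA and HOXD rows stood at 131 and 144 FPKM in WT and 135 and 130 in KO, 0.966-fold. HOXB made up 8.82% and 7.84% of this HOX FPKM in WT and 16.95% and 17.55% in KO, while HOXD made up 43.9% and 47.7% in WT and 37.4% and 34.8% in KO. For 4OHT against vehicle over all 6 libraries, the exact two-sided permutation p was 0.1 for the central rows, 0.2 for HOXB and for HOXC, and 0.5 for HOXA and for HOXD. It was also 0.1 for the rows outside posterior HOXA and HOXD, to which the limit on that grouping applies. With 3 libraries against 3, 0.1 is the smallest p this test allows. As a description over the 21 rows, which share the same libraries, the Spearman rho of mean paralog number with the KO difference was -0.56.

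With the allele background as a term, 4OHT against vehicle over the 6 libraries called 13 HOX rows higher and 0 lower, against 29.2% and 28.2% of all rows. Without the 3 rows that reached the filter only through KO, it was 12 higher and 0 lower of 18. The 13 rows were 11 of the 12 rows of groups 1 to 8, with Hoxa11 and Hoxb9. Hoxb9 had a log2 difference of 1.35 (SE 0.10, limma adjusted p = 1.38e-05). At an unadjusted limma p under 0.05 the count was 15 higher and 0 lower, against 31.8% and 30.5% of all rows. Hoxb2 and Hoxc5 lost their call without any 1 of the WT and KO libraries, and Hoxd8 without WT 2 (limma adjusted p = 0.0504) or KO 2 (0.0672). Without the background term 4 rows were called higher.

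MUT against HET sets the same treatments against each other in Fl/E861A cells. It has 1 library on each side and no test of its own. MUT was above HET in 21 of 21 tested HOX rows, against 50.6% of all rows, with the same count under median-of-ratios scaling and quantile normalization. The difference reached 2-fold on the log2(FPKM + 1) scale in 5 HOX rows, against 4.93% of all rows, and no HOX row was 2-fold lower, against 8.77%. These 5 were Hoxb9, Hoxc6, Hoxd13, Hoxd12 and the row of Hoxd9, Hoxd10 and Hoxd11. The median difference was 0.70 over HOX rows and 0.01 over all rows.

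Posterior HOXD stood higher in MUT than in HET. Hoxd13 was at 29.6 FPKM in HET and 62.4 in MUT, within the range of the WT and KO libraries. Hoxd12 was at 2.82 FPKM in HET and 6.78 in MUT, and the row of Hoxd9, Hoxd10 and Hoxd11 at 6.76 and 15.3 FPKM. For both of these the MUT library was the highest of the 6. HOXD summed to 41.9 FPKM in HET and 88.8 in MUT, 2.12-fold, beside 1.59-fold for HOXA, 2.3-fold for HOXB and 3.09-fold for HOXC. The Spearman rho of mean paralog number with the difference between MUT and HET was 0.55 over the 21 rows, as a description. It was taken on the log2(FPKM + 1) scale, which understates the change of low rows. In summed FPKM, MUT was 2.12-fold HET for the central rows and 1.97-fold for the posterior rows. It was 1.12-fold for the anterior rows and 1.64-fold for the rows that span anterior and central groups.

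The difference between the MUT and KO effects, (MUT - HET) - (KO - WT), was tested over the 6 libraries as 4 group means. The spread comes from the WT and KO pairs, and HET and MUT are assumed to vary like them. HET and MUT are 1 library each, so the fit cannot be repeated without either. The difference was called for 4 HOX rows, higher in the MUT effect, and for 0 in the other direction, against 3.07% and 0.946% of all rows. At an unadjusted limma p under 0.05 the HOX counts were 5 and 2, against 10.1% and 7.13% of all rows. The 4 were Hoxa13 and the posterior HOXD rows. In Hoxa13, MUT (4.29 FPKM) lay below every WT and KO library, and HET (2.24 FPKM) was the lowest. In Hoxd13, MUT (62.4 FPKM) lay within the range of the WT and KO libraries, and HET (29.6 FPKM) was the lowest. The row of Hoxd9, Hoxd10 and Hoxd11 had a log2 difference of 1.30 (SE 0.20, limma adjusted p = 0.00592), with -0.23 in KO against WT and 1.07 in MUT against HET. Hoxd12 had 1.21 (SE 0.20, limma adjusted p = 0.0088), with -0.19 and 1.03. Hoxd13 had 1.14 (SE 0.20, limma adjusted p = 0.0124), with -0.09 and 1.05, and Hoxa13 had 1.17 (SE 0.21, limma adjusted p = 0.0146), with -0.46 and 0.71. These 4 calls were made without each WT and KO library in turn, and none was made with no filter on low values (limma adjusted p from 0.113 to 0.266).

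The HOXB rows differed between the effects by at most 0.57 in size and limma called none, with 2 of 6 at an unadjusted p under 0.05, against 17.3% of all rows in either direction. Hoxb9 had a log2 difference of 1.26 in KO against WT and 1.53 in MUT against HET, and Hoxb8 had 1.06 and 0.49. The gap for Hoxb8 depends on the 1 added to low values. In FPKM without it, Hoxb8 in KO was 2.75-fold WT and in MUT 2.51-fold HET (0.368 FPKM). The same ratios of Hoxb9 were 2.68 and 4.73.

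**Figure D3:**
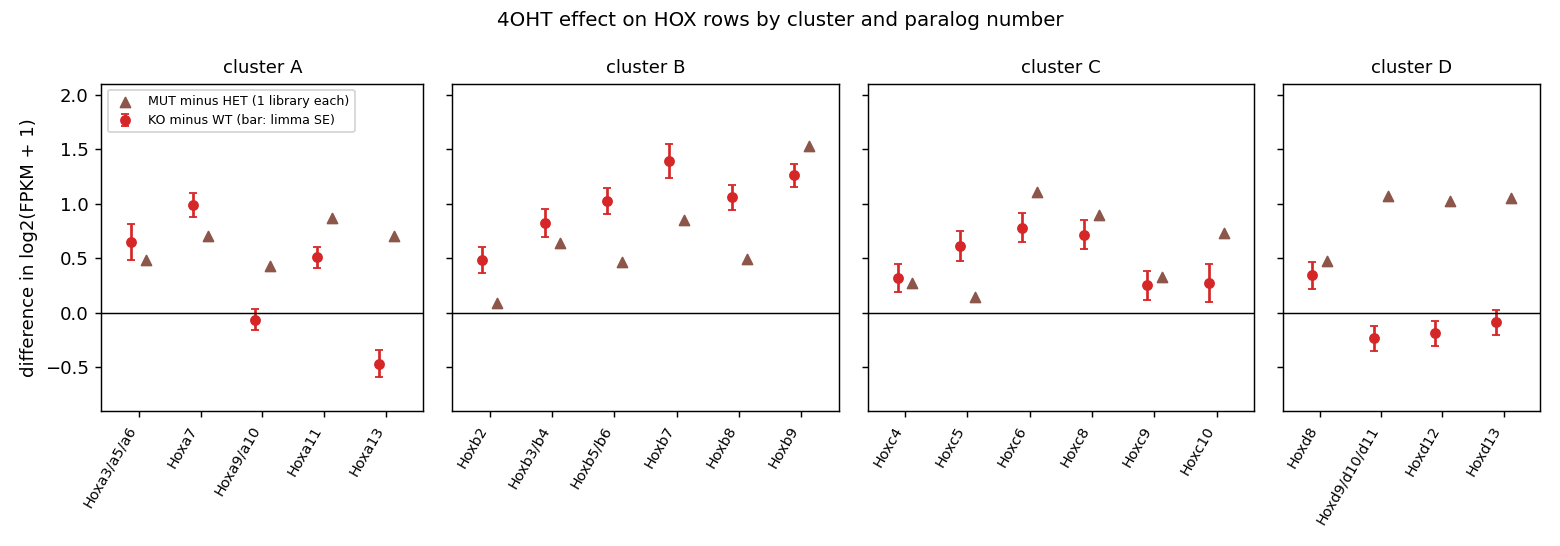
Difference in log2(FPKM + 1) of each tested HOX row, by cluster and paralog number: red circles are KO minus WT with the limma standard error, brown triangles are MUT minus HET from a single library each. The HOXB circles lie from 0.48 to 1.39, and the posterior HOXD circles lie below 0 while their triangles lie above 1.

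**Figure D4:**
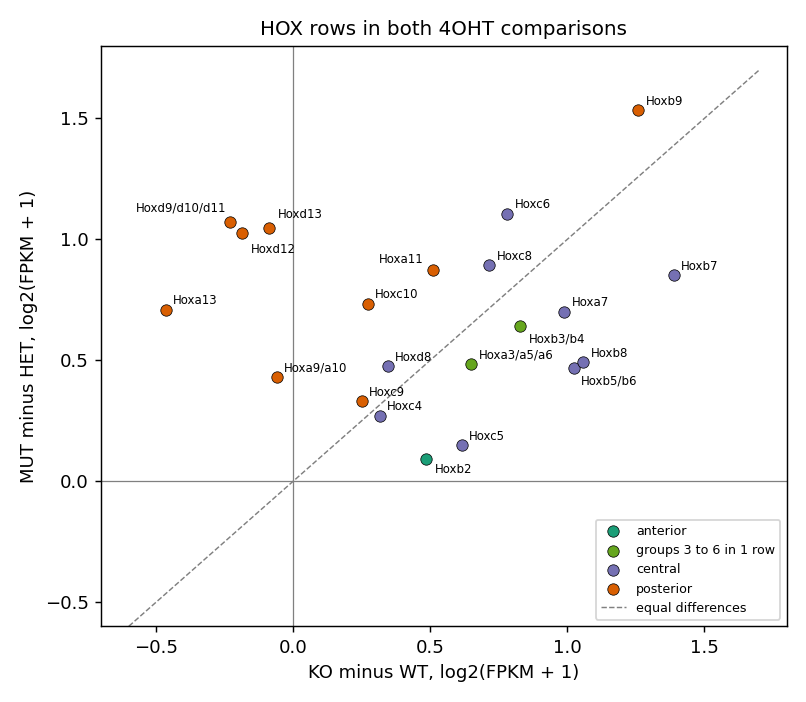
KO minus WT (horizontal) against MUT minus HET (vertical) for the 21 tested HOX rows, both in log2(FPKM + 1), coloured by position, with the dashed line at equal differences. Posterior HOXD rows and Hoxa13 lie at the upper left, most central rows lie on the right, and no point lies below 0 on the vertical axis.

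HOX levels also differed between the allele backgrounds. With treatment as a term, limma called 12 HOX rows lower and 0 higher in the Fl/E861A libraries, against 5.11% and 5.01% of all rows, with 15 and 1 at an unadjusted p under 0.05, against 12.8% and 11.7%. Hoxc4 and Hoxc9 are among the 12 and reached the filter only through the KO libraries, which are Fl/Fl, and without such rows the count was 10 lower of 18. Lower were the 6 tested rows of HOXB, 4 rows of HOXC (Hoxc4, Hoxc6, Hoxc8 and Hoxc9), Hoxa11 and the row of Hoxa9 and Hoxa10. Hoxb9 had a log2 coefficient of -1.39 (SE 0.11, limma adjusted p = 0.000368) and Hoxb8 had a coefficient of -1.22 (SE 0.15, limma adjusted p = 0.00274). The row of Hoxa9 and Hoxa10 had a coefficient of -0.89 (SE 0.12, limma adjusted p = 0.00417). No row of HOXD was called by limma, with 2 of its 4 tested rows at an unadjusted p under 0.05, against 24.4% of all rows in either direction. In all, the HOX rows summed to 85.1 FPKM in HET and 166 in MUT, beside 166.5 and 180 in WT and 209 and 206 in KO. Genotype and cell isolate cannot be told apart here. When left out in turn, the WT and KO libraries gave 6 to 9 lower rows, with 7 without WT 1, 6 without KO 1 and 7 without KO 2. Hoxb2, Hoxc9 and the row of Hoxb3 and Hoxb4 lost their call each time, Hoxb7 and Hoxc4 without WT 1, KO 1 and KO 2, and the row of Hoxb5 and Hoxb6 without KO 1.

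Other positional genes differed between the backgrounds too. Of 27 tested limb and body wall transcription factors, limma called 7 higher and 10 lower in the Fl/E861A libraries, and 10 were not called. Over all rows 5.01% were called higher and 5.11% lower. Tbx5, which starts the forelimb, stood at 12.7 and 11.1 FPKM in WT, 9.72 and 8.43 in KO, 0.379 in HET and 0.513 in MUT. Tbx4 and Pitx1, which act in the hindlimb, went the other way. Tbx4 stood at 5.32 and 6.0 FPKM in WT, 2.95 and 2.25 in KO, 15.7 in HET and 23.6 in MUT, and Pitx1 at 2.04 and 2.67, 2.70 and 2.5, 7.70 and 13.2 FPKM in the same order. The coefficients for Fl/E861A against Fl/Fl were -2.98 for Tbx5 (limma adjusted p = 4.18e-05), 2.05 for Tbx4 (0.00403) and 1.68 for Pitx1 (0.000696). The limb genes Lhx2, Lhx9, Lmx1b and Msx2 were also lower in both Fl/E861A libraries than in the 4 Fl/Fl libraries, and the 2 backgrounds did not overlap for any of these 7 genes. The genes called higher beside Tbx4 and Pitx1 were Dlx5 (coefficient 1.91), Dlx6 (1.54), Tbx2 (1.09), Tbx15 (0.68) and Osr2 (0.67). These genes were chosen after their values were seen.

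**Figure D5:**
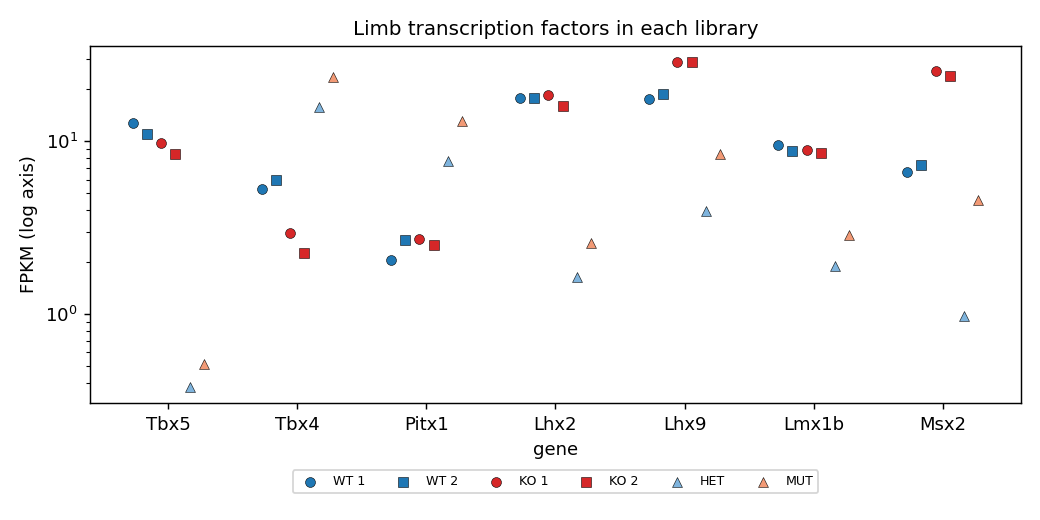
FPKM of 7 limb transcription factors in each library, on a log axis, with the symbols of the plot of HOX levels. Tbx5, Lhx2, Lhx9, Lmx1b and Msx2 lie lower and Tbx4 and Pitx1 higher in the HET and MUT libraries than in the 4 Fl/Fl libraries.

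In KO against WT, 29.5% of all rows rose and 28.2% fell. Of 27 tested limb and body wall genes, 10 rose, 9 fell and 8 were not called. The 3 of smallest p were Msx2, a homeobox gene of the limb ridge, which went from 6.66 and 7.32 to 25.3 and 23.8 FPKM, Osr2, which fell from 14.0 and 16.0 to 3.46 and 2.36 FPKM, and Osr1, which rose from 23.5 and 22.8 to 45.4 and 44.5 FPKM. Tbx5 fell by 0.36 and Tbx4 by 0.89 on the log2 scale. Of 8 tested head and anterior transcription factors, 2 rose, 3 fell and 3 were not called. Otx2, a forebrain gene, fell from 1.87 and 1.88 to 0.0246 and 0.0264 FPKM, Foxf1 rose from 0.734 and 0.631 to 2.90 and 2.39 FPKM, and Foxd1 fell from 8.64 and 16.3 to 3.10 and 2.65 FPKM. Of 6 ParaHox genes, the homeobox relatives of the HOX clusters, Gsx1 alone was tested, and it fell from 5.74 and 4.27 FPKM to 0.0893 in KO 1 and a listed 0 in KO 2.

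Genes around and inside the clusters moved both ways. Of 20 tested flanking genes, 6 rose and 8 fell in KO, against 29.5% and 28.2% of all rows, and 6 were not called. Skap1, an adaptor gene on the 3′ side of HOXB (chr11:96464593-96759130), stood at 1.02 and 0.865 FPKM in WT, 3.39 and 3.88 in KO, 0.222 in HET and 1.7 in MUT, a log2 rise of 1.25 in KO (SE 0.13, limma adjusted p = 1.4e-05). KO, MUT, WT and HET stood in the same order of level as in Hoxb7. Evx1, a homeobox gene on the 5′ side of HOXA, fell from 2.07 and 2.21 to 0.0275 and 0.0354 FPKM, and Hnrnpa1, an RNA-binding protein gene near HOXC, fell by 1.14 on the log2 scale. Evx2, the homeobox gene next to Hoxd13, stood at 3.56 and 3.36 FPKM in WT, 2.63 and 2.02 in KO, 1.55 in HET and 2.77 in MUT. Like its HOXD neighbours it differed between the effects (log2 difference 0.99, SE 0.22, limma adjusted p = 0.0377).

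Of 13 noncoding RNAs of the clusters in the files, 3 were tested. In KO 1 rose, 1 fell and 1 was not called, while 29.5% of all rows rose and 28.2% fell. Hoxa11os, transcribed antisense to Hoxa11, stood at 20.2 and 20.3 FPKM in WT, 14.0 and 13.2 in KO, 5.80 in HET and 11.2 in MUT, and fell in KO (log2 difference -0.54, SE 0.10, limma adjusted p = 0.000812), while Hoxa11 rose. The use of strand in counting is not given in the sources used here, so reads of this overlapping pair cannot be told apart with certainty. Hotairm1, a noncoding RNA of HOXA, stood at 2.47 and 1.35 FPKM in WT, 13.6 and 4.08 in KO, 9.35 in HET and 9.14 in MUT. It was called higher in KO (log2 difference 1.59, SE 0.38, limma adjusted p = 0.00447), with a wide spread between the KO libraries. The same limit on strand holds. Hoxb5os was not called (log2 difference 0.24). The microRNA genes Mir10a, Mir10b, Mir196a-2 and Mir615 were listed at 0 in all libraries, which says nothing of mature microRNAs in libraries of this kind.

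Regulators of HOX genes changed as follows. Of 26 tested chromatin regulators, 6 rose and 15 fell in KO, against 29.5% and 28.2% of all rows, and 5 were not called. The 3 of smallest p were Polycomb genes, namely Jarid2, which recruits the Polycomb complex that methylates histone H3, from 19.2 and 16.9 to 1.82 and 1.8 FPKM, Phc1 from 31.6 and 28.1 to 7.79 and 6.46, and Ezh2, the methyltransferase of that complex, from 28.9 and 34.1 to 8.93 and 8.52. In MUT these stood at 2.89, 8.95 and 13.8 FPKM, and in HET at 23.6, 42.4 and 38.5. Kmt2a, a trithorax methyltransferase, was not called (6.82 and 6.69 against 6.56 and 6.44 FPKM). The list of HOX cofactors has 10 genes, among them Pbxip1, which encodes a protein that binds PBX. Of these, 4 rose and 4 fell, against 29.5% and 28.2% of all rows, and 2 were not called. Meis2 rose from 5.60 and 5.46 to 10.2 and 10.6 FPKM, Pbxip1 from 34.5 and 32.5 to 51.3 and 52.7, and Meis3 from 6.95 and 5.59 to 11 and 10.2. Meis1 was not called in KO, and stood at 2.98 and 2.91 FPKM in WT against 14.4 in HET and 11 in MUT.

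Retinoic acid is a signal that turns on 3′ HOX genes in embryos. Of 18 tested genes of its pathway, 4 rose and 6 fell, against 29.5% and 28.2% of all rows, and 8 were not called. Crabp1, a retinoic acid binding protein, fell from 177 and 178 to 19.5 and 21.8 FPKM and stood at 658 in HET and 125 in MUT. Crabp2 rose from 63.5 and 63.9 to 183 and 167 FPKM, and Aldh1a3, which makes retinoic acid, fell from 2.56 and 2.66 to 0.330 and 0.332 FPKM. The receptors Rara, Rarg, Rxra and Rxrb were not called. The gene lists of these paragraphs are described by their counts alone, with 4 rows of chromatin regulators and 1 of cofactors that also name other genes, and the part of their members in the HOX values was not tested.

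The HOX differences came with large differences in markers of cell state. Of 16 fibroblast markers, 13 fell in KO and 1 rose (Fn1), against 28.2% and 29.5% of all rows, and 2 were not called. None of them was at 0 in any library. Postn went from 307 and 309 to 9.73 in both KO libraries, Lum from 155 and 164 to 11.1 and 11, and Col3a1 from 1054 and 953 to 65.5 and 56.0 FPKM. The fibroblast markers summed to 7861 and 7273 FPKM in WT, 3927 and 3876 in KO, 7466 in HET and 5253 in MUT. Thus 13 HOX rows rose in the libraries in which 13 fibroblast markers fell. The 11 pluripotent cell markers fell in KO, among them Epcam from 47.9 and 52.2 to 1.72 and 1.03 FPKM, and they summed to 539 and 469 FPKM in WT, 21.3 and 10.3 in KO, 553 in HET and 41.2 in MUT. Zfp42 was listed at 0 in KO 1 and Dppa4 in KO 2. The part of these cells in the HOX values was not tested, and in bulk RNA a change in the share of cells that express a HOX gene and a change in its RNA per cell cannot be told apart.

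Markers of other cell types moved as well, while over all rows 29.5% rose and 28.2% fell in KO. In KO 3 of 4 tested neural markers fell and 1 rose, 2 of 6 macrophage markers fell and 1 rose (the row of Cd68, which fell, also holds Eif4a1 and Senp3, so its level is not that of a macrophage gene alone), 3 of 4 endothelial markers fell and 1 rose, 3 of 4 keratinocyte markers fell, and 3 of 4 muscle and chondrocyte markers rose. The muscle markers Myod1 and Pax7 stood at or near 0 in all libraries, as did Ptprc, the common leukocyte antigen. Their part in the HOX values was not tested.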

How the data were processed

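Total RNA of 6 MEF libraries was sequenced after removal of ribosomal RNA, per the labels' protocols, and grouped by sample title. Per the submitters' processing notes, Cufflinks 2.2.1, Bowtie2 2.3.0 and TopHat2 2.1.1 were used with GRCm38 and mm10, in roles that are not given. The authors deposited FPKM per gene row with decimal commas, per the file headers, and the scaling between libraries is not given in the sources used here. Of 24879 rows, those lacking a gene name (1021) were dropped. A symbol on several rows kept the row of highest mean, and no HOX gene was on several rows. Values were analysed as log2(FPKM + 1), which understates the change of low genes, with limma 3.58.1 in R 4.3.3 (lmFit, eBayes with trend, two-sided). P-values were Benjamini-Hochberg adjusted over 12266 rows at 1 FPKM or more in at least 2 libraries and called under 0.05. The fits were tested on simulated data. Alternatives were the pseudocount, filter, scaling, row rule, trend, replicate block and left-out libraries.

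HOX rows with a mean of at least 2 FPKM, or called in the difference between effects or between backgrounds, are given by library, as are the 3 genes of smallest p in each accompanying list, and Hoxc4 and Hoxc9 by their differences. A HOX row and a gene of a list are not reported here and stand in no HOX or list count. The members and lists were chosen with earlier results of these data known.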

Additional observations from a re-analysis of the deposited data

Results flagged for a closer look

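For 4 posterior HOX rows the difference between MUT and HET was not that between KO and WT, by the test of the difference itself (limma over 4 group means). It was 1.30 on the log2 scale for the row of Hoxd9, Hoxd10 and Hoxd11, 1.21 for Hoxd12, 1.17 for Hoxa13 and 1.14 for Hoxd13. HET and MUT are 1 library each, so the spread behind these values is that of the WT and KO pairs. None of these 4 rows was called with no filter on low values. The effects come from different allele backgrounds, in which genotype and cell isolate cannot be told apart.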

How the results depend on the processing

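No HOX row that was called turned its direction in the alternatives run. With no filter on low values, which tests 23406 rows, 7 HOX rows rose and 0 fell in KO, 0 differed upward between the effects, and 1 was lower in the Fl/E861A background. With a library left out, KO against WT gave 0 to 2 lower rows and the background 6 to 9 lower rows. Without the background term, 4OHT against vehicle called 4 higher rows. With a pseudocount of 0.1, 9 rows were 2-fold higher in MUT than HET, which are 1 library each. Without its highest row, the KO over WT sum was 1.35 for the HOX rows, 1.41 for HOXA and 2.39 for HOXB. Replicate numbers are shared by WT and KO, but with 2 pairs and a correlation of deviations of 0.1825 they were not taken as pairing. The replicate block gave 13 higher and 1 lower HOX rows, as without it. Hoxb7 had a larger KO difference than Hoxb9 with all 4 libraries, but not without WT 2 (1.24 against 1.33) or KO 2 (1.21 against 1.27). The depth is unknown, which leaves the counting error of low rows unknown.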
